A study of Homo sapiens with 6 samples.

Results

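Open chromatin at 8 genes for surface proteins of T cells was described in 6 established lines of T-ALL, the T-cell form of acute lymphoblastic leukaemia. The genes are CD3E, CD3D and CD3G, which share a window, then CD2, CD6 together with CD5, CD7 and CD28. Their 5 windows in the human genome build hg19 span 480 kb in all: 90 kb for the CD3 cluster, 65 kb for CD2, 205 kb for CD6 and CD5, 40 kb for CD7 and 80 kb for CD28. Every interval of the 6 deposited peak lists that overlapped a window was taken, and intervals of different lines that shared at least 1 bp were joined into a region. This gave 89 intervals in 29 regions, of 40110 regions in the whole series. The windows were drawn around genes and not around peak values, but they were chosen with earlier results of these data known.

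The lines were TALL-1, MOLT-4, CCRF-CEM, KOPT-K1, HBP-ALL and DND-41, each labelled as T-ALL cells and grown in RPMI-1640 medium with serum and antibiotics, with no agent, genotype or control named. In ATAC-seq the Tn5 transposase cuts and tags accessible DNA, so that a peak marks a position with many tags. Each line had 1 library, so no value here has a replicate error, and a difference between lines cannot be told apart from a difference between preparations. The lists held 16507 to 22367 intervals per line on chromosomes 1 to 22 and X, and the read totals behind them are unknown.

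The CD3 epsilon, delta and gamma chains are the signalling subunits that carry the T-cell receptor to the cell surface, and their cytoplasmic tails hold the tyrosine motifs that start the signal. CD2 is an adhesion receptor that binds CD58. CD5 and CD6 are related scavenger-receptor proteins that modulate signalling, CD5 as an inhibitor, CD7 is an immunoglobulin-family protein present early in the lineage, and CD28 is the co-stimulatory receptor for CD80 and CD86. CD7 and CD3 are used to diagnose T-ALL. As background, enhancers active in T cells are known downstream of human CD3E and of human CD2. No hg19 gene annotation was used, so regions are given by position, and whether a region lies at a gene start, in an exon or intron, or at a known enhancer was not tested.

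In the RefSeq gene order of GRCh38, CD3E, CD3D and CD3G follow each other on chromosome 11, with MPZL2 before them and UBE4A after them. CD6 lies between SLC15A3 and CD5, and CD5 is followed by VPS37C. CD7 lies between CSNK1D and SECTM1 on chromosome 17, CD28 precedes CTLA4 on chromosome 2, and CD2 lies between IGSF3 and PTGFRN on chromosome 1. A region near a window's edge may therefore belong to a neighbour.

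Promoters of 3 of the 8 genes, from 250 bases before to 50 bases after the RefSeq start in GRCh38.p14, are printed to show the sequence at the starts of genes from 3 of the windows. Each reads 5′ to 3′ on the gene's own strand, which is the minus strand of chromosome 11 for CD3D and the plus strand of chromosomes 1 and 2 for CD2 and CD28. Capitals mark matches on either strand to motifs of factors known at T-cell genes: the letters TGTGGT for RUNX, AGGAAG for ETS, AGATAA for GATA factors and CAGCTG for an E-box. TATAAA, for a TATA box, was searched too.
CD3D: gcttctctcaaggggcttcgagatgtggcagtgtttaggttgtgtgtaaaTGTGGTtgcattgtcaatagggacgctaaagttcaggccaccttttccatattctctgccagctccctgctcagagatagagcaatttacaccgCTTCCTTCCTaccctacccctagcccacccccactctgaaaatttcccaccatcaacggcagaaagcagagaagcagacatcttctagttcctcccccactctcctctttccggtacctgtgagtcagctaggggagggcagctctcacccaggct
CD2: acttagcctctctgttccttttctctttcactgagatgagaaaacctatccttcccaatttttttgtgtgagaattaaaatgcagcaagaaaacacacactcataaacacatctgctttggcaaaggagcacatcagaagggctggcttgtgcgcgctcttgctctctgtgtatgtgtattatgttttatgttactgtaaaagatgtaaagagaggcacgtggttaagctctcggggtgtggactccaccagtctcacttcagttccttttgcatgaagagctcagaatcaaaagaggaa
CD28: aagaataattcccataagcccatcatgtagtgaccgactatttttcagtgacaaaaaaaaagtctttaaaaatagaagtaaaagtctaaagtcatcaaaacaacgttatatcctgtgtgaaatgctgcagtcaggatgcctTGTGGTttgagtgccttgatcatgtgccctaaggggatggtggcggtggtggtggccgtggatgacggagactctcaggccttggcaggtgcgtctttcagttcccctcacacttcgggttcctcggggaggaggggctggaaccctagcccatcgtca
The CD3D promoter held 1 RUNX match and 2 ETS matches on its opposite strand, which overlap each other and make up 1 run of capitals. The CD28 promoter held 1 RUNX match, and the CD2 promoter held none of the 5 motifs. Among 35116 promoters of this length, 13.1% held the RUNX letters, 33.6% the ETS letters, 10.3% the GATA letters, 17.9% the E-box and 11.5% the TATA letters. A match is a description of letters in GRCh38; the hg19 peaks were not placed on these sequences.

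Of the 29 regions, 5 had a peak in all 6 lines: 3 in the CD3 window, 1 in the CD2 window and 1 in the CD6 and CD5 window. That is 17.2% of the 29 regions, against 22.6% over all 40110 regions, so sharing by every line was not more frequent here. Regions with a peak in at least 5 lines numbered 8, or 27.6%, against 29.1% over all regions. Regions with a peak in a single line also numbered 8, or 27.6%, against 43.2%. Regions open in all or nearly all lines thus had shares close to the background. The share of regions of a single line was lower among these 29 regions. No interval was computed for it, and whether it differs from the background was not tested.

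HBP-ALL had a peak in 22 of the 29 regions, KOPT-K1 in 18, TALL-1 in 14, MOLT-4 in 13, and CCRF-CEM and DND-41 in 11 each. For HBP-ALL this is 75.9% (exact Clopper-Pearson 95% interval 56.5% to 89.7%), against 54.5% over all regions. KOPT-K1 had 62.1% (42.3% to 79.3%), against 44.8%, and TALL-1 had 48.3% (29.4% to 67.5%), against 40.7%. CCRF-CEM had 37.9% (20.7% to 57.7%), against 55.4%, and DND-41 had the same 37.9%, against 44.3%. MOLT-4 had 44.8% (26.4% to 64.3%), against 47.3%. Only for HBP-ALL did the share over all regions fall outside the interval, which covers counting error only and treats neighbouring regions as independent. Of the 22 regions of HBP-ALL, 5 were called there alone, so they are among the 29 only through its own calls. The share over all regions also holds such regions, 4654 for HBP-ALL. With each list cut to the same number of its strongest intervals, HBP-ALL had 14 of 22 regions, or 63.6% (40.7% to 82.8%), against 50.7% over all regions, which lies inside the interval. KOPT-K1 and TALL-1 then also had 14. With a −log10 p of at least 10 HBP-ALL had 14 of 19 regions, or 73.7% (48.8% to 90.9%), against 57.5%, and with a −log10 q of at least 5 it had 17 of 23, or 73.9% (51.6% to 89.8%), against 56.5%. The share over all regions thus lay inside the interval under each of these 3 stricter selections, which left fewer regions and wider intervals. With windows trimmed by 10 kb HBP-ALL had 77.8% (57.7% to 91.4%), against 54.5%, which lies below the interval. The share over all regions also lay below it with intervals joined only at 50% overlap (53.7%) or up to 100 bp apart (54.6%).

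**Figure D1:**
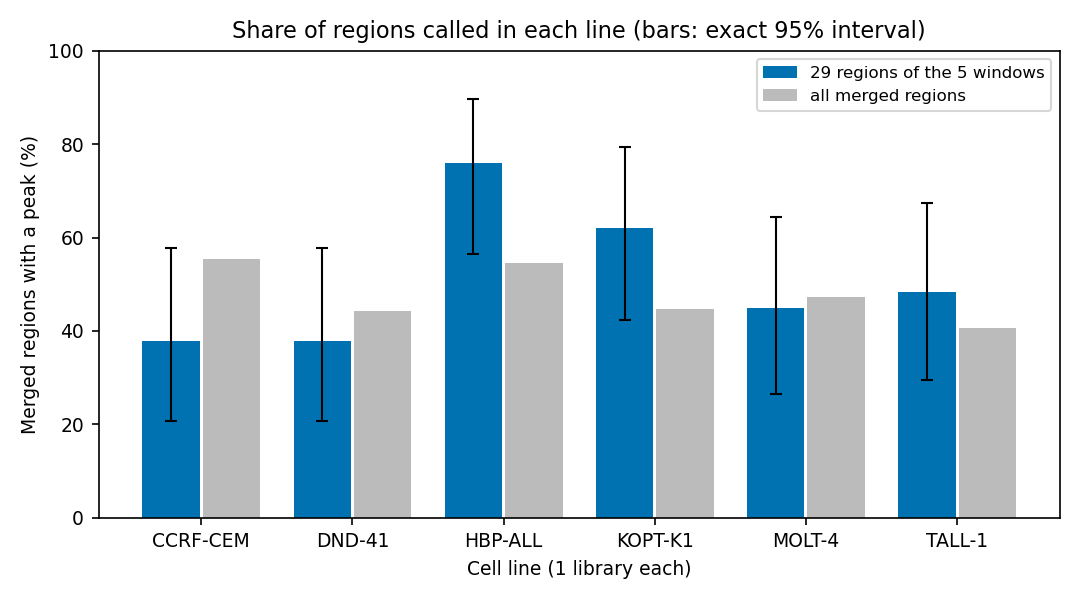
Percentage of regions with a called peak in each line (x axis, 1 library each), for the 29 regions of the 5 windows (blue, with exact 95% intervals) and for all 40110 regions (grey). HBP-ALL at 75.9% is the line whose interval lies above its grey bar.

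Peak height is given as the pileup, which counts the tags covering the strongest summit and was recovered from the authors' fold and p-value. To set lines side by side it was also divided by the line's median pileup over regions that all 6 lines share, which was 44 in TALL-1, 40 in DND-41, 39 in HBP-ALL, 36 in both KOPT-K1 and MOLT-4, and 31 in CCRF-CEM. A scaled pileup of 1 is thus an ordinary height for a widely shared region of that line. As another scale the pileup was divided by a recovered tag depth. This was the lowest recovered background of a list over the width of its narrowest interval, relative to CCRF-CEM. It is a rough estimate and not a read count. On that scale CCRF-CEM became the highest line at CD2 region 5 and at CD28 region 2, and KOPT-K1 at CD6-CD5 region 6 and at CD7 region 3. At the other regions with a peak in at least 5 lines, the highest line was the same on both scales. The lowest line changed from CCRF-CEM to HBP-ALL at CD3 region 1 and from MOLT-4 to KOPT-K1 at CD28 region 5. At the rest of the regions with a peak in at least 5 lines the lowest line was the same. Regions are numbered in order along each window.

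**Figure D2:**
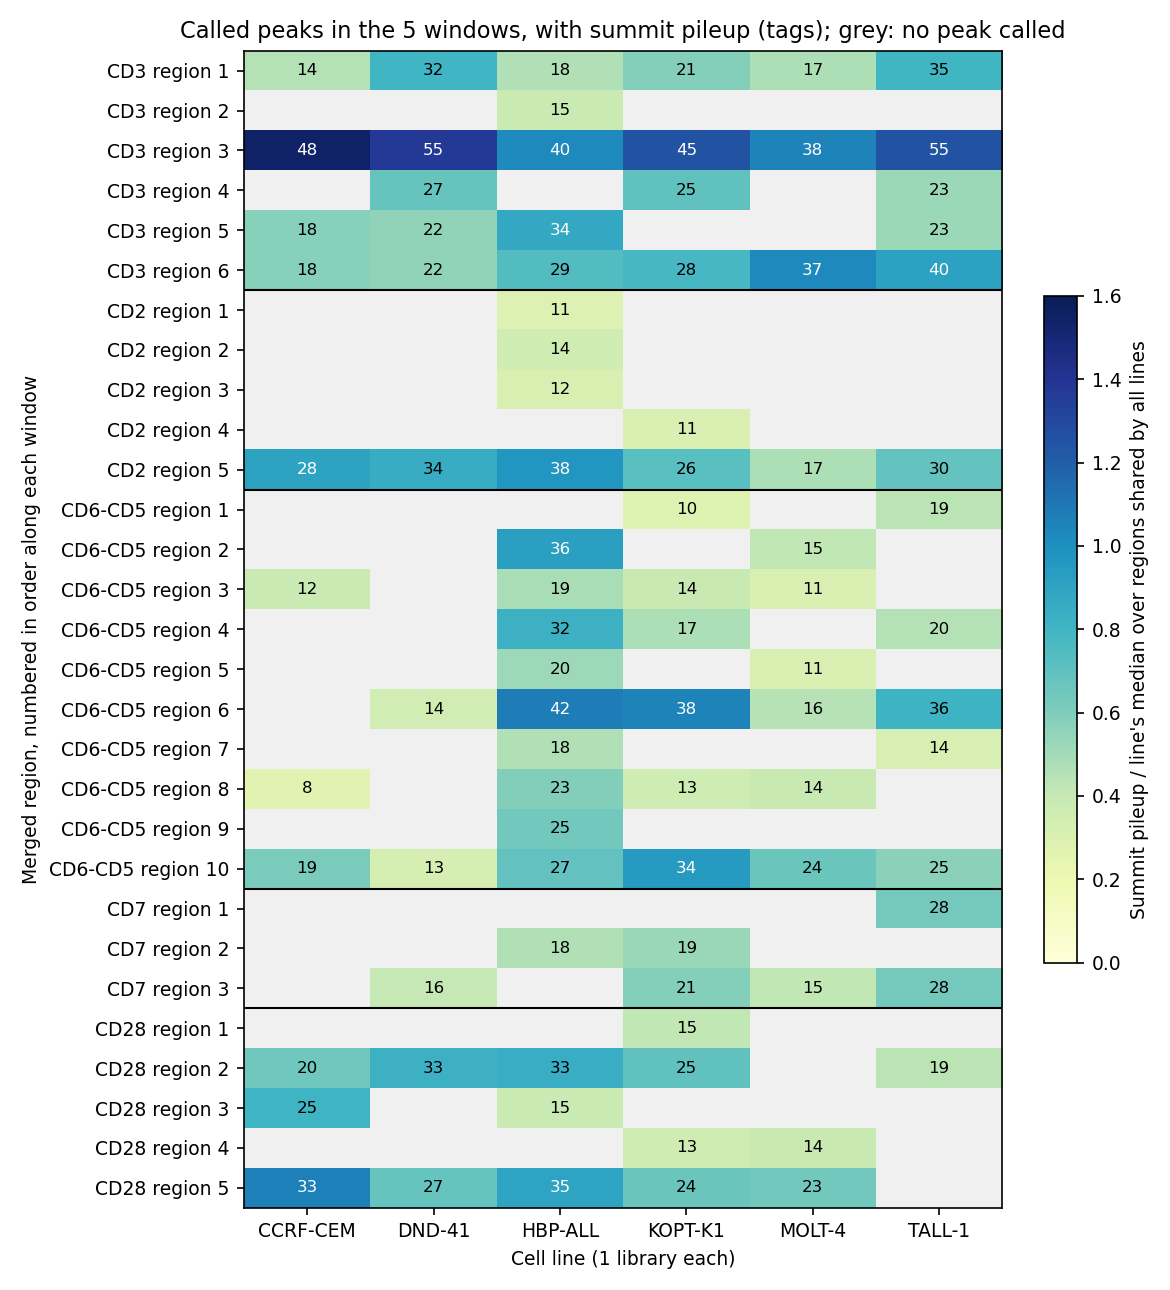
Called peaks at the 29 regions (rows, grouped by window) in the 6 lines (columns); numbers are pileups in tags, the colour is the pileup divided by the line's median over shared regions, and grey means that no peak was called. CD3 region 3 is the darkest row, and the CD6-CD5 block is filled most in HBP-ALL.

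The CD3 window held 6 regions and the tallest peaks of the set. Its region 3, chr11:118187044-118187925, had a pileup of 55 tags in DND-41, 55 in TALL-1, 48 in CCRF-CEM, 45 in KOPT-K1, 40 in HBP-ALL and 38 in MOLT-4. The scaled pileup was 1.55 in CCRF-CEM, 1.38 in DND-41, 1.25 in both KOPT-K1 and TALL-1, 1.06 in MOLT-4 and 1.03 in HBP-ALL, so it stood above the line's median shared region in all 6 lines, the only one of the 29 to do so. It was the strongest of the 29 by the authors' −log10 p in CCRF-CEM (47.3), DND-41 (39.9), KOPT-K1 (29.7) and TALL-1 (38.8), and second in MOLT-4 (25.8). In HBP-ALL its −log10 p of 26.8 stood behind CD6-CD5 regions 6 and 2, at 32.9 and 29.9, and CD2 region 5, at 27.2.

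Region 1, chr11:118175093-118175827, also had a peak in all 6 lines. Its pileup was 35 tags in TALL-1, 32 in DND-41, 21 in KOPT-K1, 18 in HBP-ALL, 17 in MOLT-4 and 14 in CCRF-CEM. On the scaled pileup DND-41 (0.80) and TALL-1 (0.80) were high, and the other 4 lines lay between 0.45 and 0.58. HBP-ALL, MOLT-4 and TALL-1 each had a pair of summits within this interval.

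Region 6, chr11:118229928-118230515, lies on the CD3G and UBE4A side of the window, and to which gene it belongs was not tested. It was called in every line. It had 40 tags in TALL-1, 37 in MOLT-4, 29 in HBP-ALL, 28 in KOPT-K1, 22 in DND-41 and 18 in CCRF-CEM. The order of the lines differed from that at region 1: scaled, MOLT-4 was highest at 1.03, and DND-41 lowest at 0.55. MOLT-4 had its strongest −log10 p of all its 13 regions here, at 32.2.

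Regions 4 and 5 lie 893 bp apart between these, at chr11:118213295-118213799 and chr11:118214693-118215277. DND-41 and TALL-1 had both, with 27 and 22 tags in DND-41 and 23 and 23 tags in TALL-1. KOPT-K1 had region 4 alone (25 tags), and CCRF-CEM (18 tags) and HBP-ALL (34 tags) had region 5 alone. MOLT-4 had neither, and its nearest interval to region 5 lay 14.8 kb away. The scaled heights at region 5 correspond to 18.8 to 31.4 tags in MOLT-4, whose list reaches down to 7 tags; 36.8% of its summits lay at or below 18.8. Region 2 was a weak peak of HBP-ALL alone, with 15 tags.

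The CD2 window held 5 regions, of which 4 had a peak in a single line. Over all 40110 regions 43.2% had a peak in a single line, and 5 regions are few for a share. The shared one, region 5 at chr1:117311980-117312954, had 38 tags in HBP-ALL, 34 in DND-41, 30 in TALL-1, 28 in CCRF-CEM, 26 in KOPT-K1 and 17 in MOLT-4. Scaled, HBP-ALL was highest at 0.97 and MOLT-4 lowest at 0.47. MOLT-4 thus had, on this scale, the lowest CD2 region 5 and the highest CD3 region 6 of the 6 lines. CD3 region 6 may, however, belong to the neighbour UBE4A. MOLT-4 and TALL-1 had a pair of summits at CD2 region 5, 292 and 218 bp apart. Regions 1, 2 and 3 were called only in HBP-ALL, with 11, 14 and 12 tags, and region 4 only in KOPT-K1, with 11 tags. These 4 ranked low in their own lists, at percentiles from 3.73 to 18.1 of −log10 p. In CCRF-CEM, DND-41, MOLT-4 and TALL-1, region 5 was the only interval in the 65 kb.

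The CD6 and CD5 window was the largest. Of its 10 regions HBP-ALL had 9, KOPT-K1 and MOLT-4 had 6, TALL-1 had 5, CCRF-CEM had 3 and DND-41 had 2. For HBP-ALL this is 90.0% (exact 95% interval 55.5% to 99.7%), against 55.6% over all regions of chromosome 11, and the interval for DND-41 was 2.52% to 55.6%, against 43.4%. For CCRF-CEM it was 6.67% to 65.2%, against 57.8%. KOPT-K1 and MOLT-4 each had 60% (26.2% to 87.8%), against 44.6% and 46.2%, and TALL-1 had 50% (18.7% to 81.3%), against 40.3%. The chromosome's share lay inside the interval in all 6 lines. The share over the whole series did so too, except in HBP-ALL, where 54.5% lies just below the interval. At a −log10 p of at least 10, DND-41 kept 0 of its 2 regions, KOPT-K1 2 of 6 and MOLT-4 3 of 6. HBP-ALL kept 8 of 9, TALL-1 4 of 5 and CCRF-CEM 2 of 3.

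The shared region 10, chr11:60896907-60897654, lies at the CD5 and VPS37C end. It had 34 tags in KOPT-K1, 27 in HBP-ALL, 25 in TALL-1, 24 in MOLT-4, 19 in CCRF-CEM and 13 in DND-41. KOPT-K1 was highest on the scaled pileup at 0.94 and DND-41 lowest at 0.33, with the other 4 lines between 0.57 and 0.69. Against the mean of the 6 lines, with each line centred on its median over shared regions, the log2 pileup was −0.91 in DND-41 and 0.60 in KOPT-K1. This is the widest spread among the 5 regions shared by all lines.

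Region 6, chr11:60809463-60810154, had peaks in 5 lines. The pileup was 42 tags in HBP-ALL, 38 in KOPT-K1, 36 in TALL-1, 16 in MOLT-4 and 14 in DND-41, and CCRF-CEM had no peak. The lines fell apart here: HBP-ALL (1.08), KOPT-K1 (1.06) and TALL-1 (0.82) on the scaled pileup, against DND-41 (0.35) and MOLT-4 (0.44). The same heights correspond to 10.9 to 33.4 tags in CCRF-CEM, whose list reaches down to 6 tags. In CCRF-CEM 15.5% of summits lay at or below 10.9, and its nearest interval lay 36.9 kb away.

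Regions 3 and 8, chr11:60771929-60772558 and chr11:60869497-60870110, had peaks in the same 4 lines, CCRF-CEM, HBP-ALL, KOPT-K1 and MOLT-4, and in neither DND-41 nor TALL-1. Their heights were modest, with 11 to 19 tags at region 3 and 8 to 23 tags at region 8. In DND-41 the scaled heights correspond to 12.2 to 19.5 tags at region 3 and 10.3 to 23.6 tags at region 8. In TALL-1 they correspond to 13.4 to 21.4 tags and 11.4 to 25.9 tags. The lists reach down to 8 tags in DND-41 and 9 in TALL-1, so the lower ends lie near their weakest peaks. At or below these ends lay 10.3% and 4.94% of summits in DND-41, and 10.8% and 5.34% in TALL-1. Region 2, chr11:60753582-60753990, had 36 tags in HBP-ALL and 15 in MOLT-4 and no peak elsewhere. It had the highest fold over the local background of any region seen in fewer than 5 lines in this window, 10.8 in HBP-ALL by the authors' value. Region 9, chr11:60888306-60888531, was called in HBP-ALL alone, at 25 tags and a fold of 6.84. The remaining regions 1, 4, 5 and 7 had peaks in 2 or 3 lines, with 10 to 32 tags.

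CCRF-CEM had no interval in the CD7 window, which was the only one without a region in at least 5 lines. Over all 40110 regions 29.1% had a peak in at least 5 lines, and 3 regions are few for a share in this window. Its region 3, chr17:80275190-80275674, had 28 tags in TALL-1, 21 in KOPT-K1, 16 in DND-41 and 15 in MOLT-4, and no peak in CCRF-CEM or HBP-ALL. All were low, with scaled pileups of 0.40 in DND-41, 0.42 in MOLT-4, 0.58 in KOPT-K1 and 0.64 in TALL-1. Region 2 had 18 tags in HBP-ALL and 19 in KOPT-K1, and region 1 had 28 tags in TALL-1 on a local background of 8.17 tags, the highest background among the 89 intervals. Region 3 was the one with the highest fold here, 5.68 in KOPT-K1.

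For CCRF-CEM, 0 of 3 regions allows a share of up to 70.8% (exact 95% interval). Its nearest intervals end 3.997 kb before the window and start 81.2 kb after it. CCRF-CEM was also sparse over chromosome 17 as a whole, with a peak in 41.9% of 1363 regions, against 53.4% to 70.1% in the other 5 lines. Its log2 pileup relative to the mean of the lines had a median of −0.64 over 403 shared regions of that chromosome. The part of this in the empty window was not tested. For HBP-ALL the chromosome's share was 68.5%. A missing peak means that no call passed the authors' threshold, and it measures neither closed chromatin nor absent CD7.

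The CD28 window held 5 regions, of which regions 2 and 5 had peaks in 5 lines each, lacking a different line. Region 2, chr2:204571002-204571454, had 33 tags in both DND-41 and HBP-ALL, 25 in KOPT-K1, 20 in CCRF-CEM and 19 in TALL-1, and no peak in MOLT-4. The scaled pileup was highest in HBP-ALL at 0.85 and DND-41 at 0.83 and lowest in TALL-1 at 0.43. These correspond to 15.5 to 30.5 tags in MOLT-4, where 26.9% of summits lay at or below 15.5.

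Region 5, chr2:204605448-204606540, the widest of the 29 at 1093 bp, had 35 tags in HBP-ALL, 33 in CCRF-CEM, 27 in DND-41, 24 in KOPT-K1 and 23 in MOLT-4, and no peak in TALL-1. CCRF-CEM was highest on the scaled pileup, at 1.06, and the other 4 lay between 0.64 and 0.90. In TALL-1 these heights correspond to 28.1 to 46.8 tags, while its list reaches down to 9 tags and its nearest interval lay 34.1 kb away. In that list 48.5% of summits lay at or below 28.1. TALL-1 was sparse over chromosome 2, with a peak in 30.4% of 3510 regions, against 38.8% to 59.3% in the others, and a median relative log2 pileup of −0.33; the part of this was not tested.

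The other CD28 regions were seen in few lines. Region 3, chr2:204582847-204583176, had 25 tags in CCRF-CEM and 15 in HBP-ALL, with the highest fold of these, 8.40 in CCRF-CEM by the authors' value. Region 4 had 13 tags in KOPT-K1 and 14 in MOLT-4, and region 1 had 15 tags in KOPT-K1 alone. MOLT-4 thus had 2 intervals in this window, at regions 4 and 5, and TALL-1 had 1, at region 2.

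**Figure D3:**
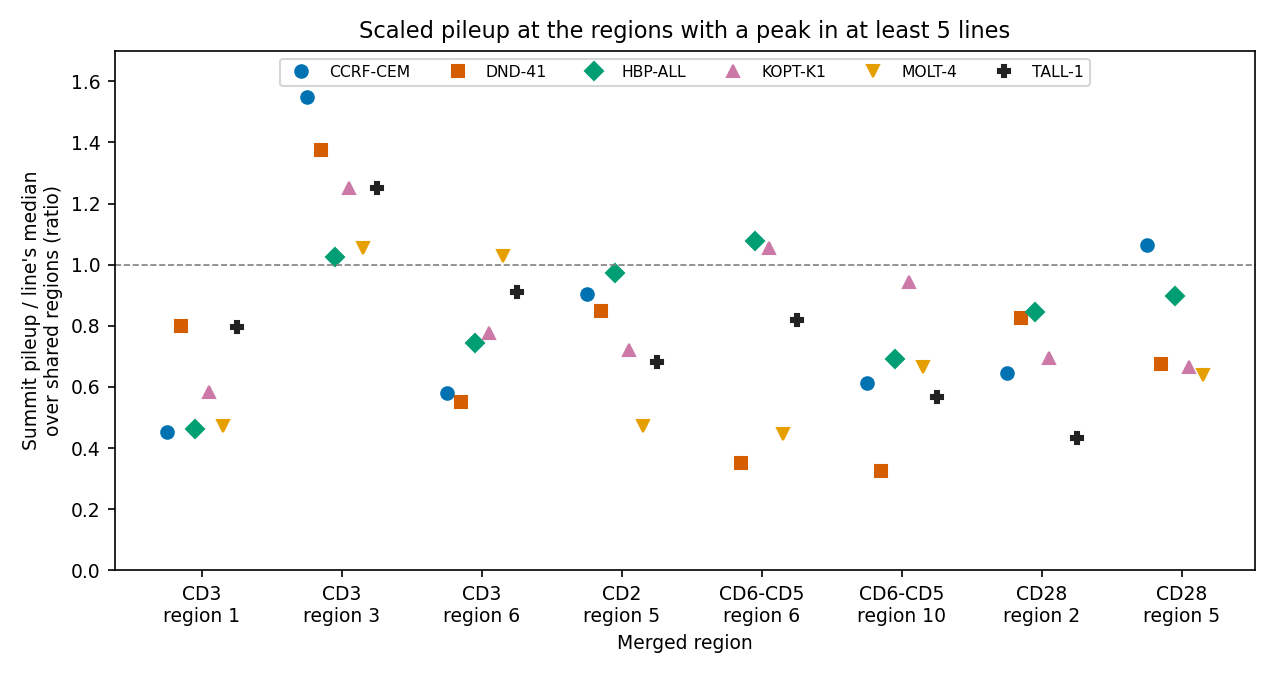
Pileup divided by the line's median over shared regions (y axis, a ratio) at the 8 regions with a peak in at least 5 lines (x axis), 1 point per line; the dashed line is 1. All 6 lines lie above 1 at CD3 region 3, and no other region has all its points there.

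On the pileup scaled by the line's median, no line was the highest or the lowest at every shared region. Over the 5 regions shared by all lines, the median relative log2 pileup was 0.14 in DND-41, 0.03 in both HBP-ALL and TALL-1, −0.02 in KOPT-K1, −0.05 in CCRF-CEM and −0.22 in MOLT-4. Within DND-41 alone the 5 values ran from −0.91 to 0.47, wider than the differences between these medians. The signs depended on the scaling: CCRF-CEM stood at 0.39, HBP-ALL at −0.26 and TALL-1 at −0.18 when scaled by the recovered tag depth. On that scale CCRF-CEM lay above the mean of the lines at all 5 regions, by 0.01 to 0.69. With the authors' fold in place of the pileup CCRF-CEM stood at 0.29 and HBP-ALL at −0.13. Centred per chromosome, KOPT-K1 stood at 0.02 and TALL-1 at −0.09. DND-41 was above 0 and MOLT-4 below 0 under each of these scalings. The median pileup over the 5 regions was lower than over all 9053 regions shared by the lines, with 35 against 44 tags in TALL-1, 29 against 39 in HBP-ALL, 32 against 40 in DND-41, 19 against 31 in CCRF-CEM, 28 against 36 in KOPT-K1 and 24 against 36 in MOLT-4.

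Summits of different lines fell close together. At the 5 shared regions the strongest summits spanned 25 to 182 bp across the 6 lines, with a median of 73 bp, against a median of 123 bp over all 9053 shared regions. The 5 regions were also narrower, with a median width of 748 bp against 880 bp, and the part of width in the span was not tested. CD6-CD5 region 10 had the narrowest span, 25 bp, from 60897392 to 60897417 on chromosome 11, although the spread of its relative pileups was the widest of the 5. CD3 region 1 had the widest, 182 bp, where several lines had a pair of summits. CD3 region 3 spanned 73 bp and CD3 region 6 spanned 63 bp.

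**Figure D4:**
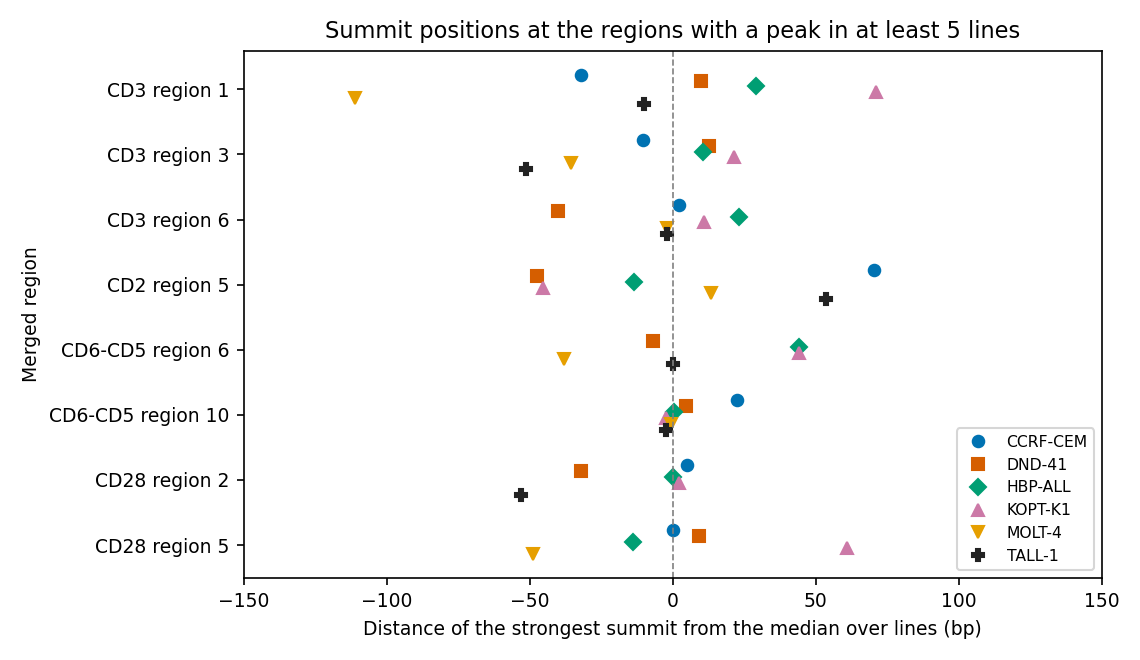
Distance in bp of each line's strongest summit from the median summit of the lines (x axis) at the 8 regions with a peak in at least 5 lines (y axis). The points of CD6-CD5 region 10 lie within 25 bp, and those of CD3 region 1 within 182 bp.

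Pairs of lines shared different parts of the set. DND-41 and TALL-1 had 10 regions in common, 10 of the 11 in DND-41 and 10 of the 14 in TALL-1. As a share of the regions called in either, this was the highest of the pairs, 66.7%, against 57.6% over all regions. MOLT-4 and TALL-1 had the lowest, 35.0%, against 54.9%, with 7 of the 13 in MOLT-4 and 7 of the 14 in TALL-1. The 11 regions of CCRF-CEM were also called in HBP-ALL, where they are 11 of 22. As a share of the regions called in either this is 50%, against 40.3% over all regions. HBP-ALL had a peak in 22 of the 29 regions, which leaves few regions of another line outside its calls. For parts of 1 line's regions, such as 10 of the 11 in DND-41, no share over all regions was computed. Of the 8 regions called in 1 line alone, HBP-ALL had 5, KOPT-K1 had 2 and TALL-1 had 1, while CCRF-CEM, DND-41 and MOLT-4 had 0. For HBP-ALL this is 62.5% (exact 95% interval 24.5% to 91.5%), against 26.9% of the 17315 such regions in the whole series, which lies inside the interval. Over the whole series KOPT-K1 had 1498 of them, TALL-1 had 1490, CCRF-CEM 6420, DND-41 1428 and MOLT-4 1825. For CCRF-CEM, 0 of 8 allows a share of up to 36.9%, against 37.1% over the whole series.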

How the data were processed

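ATAC-seq peak lists of 6 T-ALL cell lines, 1 library each, were used as deposited. Per the submitters' processing notes, Bowtie2, Picard, SAMtools and MACS2 2.1.1.2016030 were used with build hg19; their order, their settings and any shift for the Tn5 cut were not given in the sources. The lists have no header and were read as narrowPeak, with 1 list per library. The authors deposited for each summit a score, a fold (ratio) over local background, −log10 values of its p-value and q-value, and the summit's offset in bp from the interval start, which is none of the other units.

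Rows for the same interval were joined, keeping the strongest summit, and overlaps of at least 1 bp between lines joined intervals into regions, on chromosomes 1 to 22 and X. Pileups were recovered as the whole number t with fold (t + 1) / (c + 1), c being the background, and with p the Poisson chance of more than t, within 0.001 of the −log10 p, for 99.9% to 99.99% of summits per list. Recovery and merging were tested on simulated data. Percentiles rank −log10 p within a list and are not compared between lists. No test between lines was made, since each has 1 library; exact intervals have a 95% level and cover counting error only.

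The genes, windows and lists were chosen with earlier results of these data known. Regions with peaks in at least 5 lines were described in full, and per window the one with the highest fold among the rest. Scaled pileups, equivalent heights, summit spans, pair overlaps and motifs were added after the values were seen. The planned check of markers of other cell types needs an hg19 annotation and was not made. Alternatives were stricter thresholds, other overlaps, equal list lengths, trimmed windows and other scalings. The software was scipy 1.17.1, pandas 2.3.3 and numpy 2.4.6 under Python 3.11.15, with matplotlib 3.10.9; promoters and gene order are from RefSeq (GRCh38.p14).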

Additional observations from a re-analysis of the deposited data

How the results depend on the processing

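The 29 regions and the 5 regions shared by all lines stayed at these counts when intervals were joined only at 50% overlap or up to 100 bp apart, and trimming the windows by 10 kb left 27 and 5. With a −log10 p of at least 10 there were 19 regions, of which 2 (CD3 regions 3 and 6) had a peak in all lines, while 25.3% did over the whole series, and counts per line were 14 in HBP-ALL, 10 each in KOPT-K1, CCRF-CEM and TALL-1, and 7 each in DND-41 and MOLT-4. HBP-ALL then had 73.7%, against 57.5% over all regions, which its interval holds. With equal numbers of the strongest peaks HBP-ALL had 14. The median relative log2 pileup of CCRF-CEM was 0.3852 with the tag depth and 0.2913 with the authors' fold, shifts above the SD over the 5 regions. Of 180 recomputed counts per line and window, 152 stayed within 1.5 times and 28 were lower. Among 12 regions with a peak in at least 4 lines, the highest line was the same by tag depth, a scaling tried after the data were seen, in 6 and the lowest in 10. No paired analysis was possible because each line has 1 library. Unknown read totals limit what a missing peak can show.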
